A study of Mus musculus with 11 samples.

Results

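The loci described here are transcripts of the embryonic mouse kidney that had no match in the gene annotation used by the study and were 500 bp or longer. They were taken from the authors' table of transcript levels as the rows with no class code and a length of at least 500 bp, and 1169 of the 138486 transcripts met both criteria. A further 4121 transcripts without a match were shorter. RNA came from metanephric mesenchyme (MM), the tissue that forms nephrons, and from ureteric bud (UB), the epithelial tube that branches into the collecting ducts. Both were separated manually in E11.5 embryos of wild-type C57BL/6 mice. Total RNA was made into stranded libraries, and each tissue gave 1 sample. The same loci were set beside peaks of the histone marks H3K4me3 and H3K27me3, 1 list for each mark and population. Cap mesenchyme, the nephron progenitors, was sorted as Cited1-RFP+ cells at E18.5 from Cited1nuc-TagRFP-T mice of (C57BL/6 x DBA)F1 origin kept on C57BL/6J. Ureteric epithelium was sorted as Hoxb7-GFP+ cells at E15.5 from Hoxb7myr-Venus/+ mice of (C57BL/6J x CBA/J)F2 origin on C57BL/6J. The embryonic stem (ES) cells were the wild-type line E14, of strain 129/Ola, at passage 15. The transgenes mark every cell that uses the Cited1 or Hoxb7 regulatory sequences, and the RNA tissue was younger than the sorted cells. With 1 sample a group no difference has a replicate check and no test was made.

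Much of a mammalian genome is transcribed outside annotated genes, often at low level. Such RNA includes long noncoding RNAs, RNA that runs on past the annotated end of a gene, RNA made in the opposite direction from a gene's promoter, precursors of microRNAs and copies of genes called pseudogenes. H3K4me3 marks promoters that are open to transcription, and H3K27me3 is left by Polycomb complexes at repressed developmental genes.

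Some of these loci spanned microRNA hairpins, and others began inside an annotated promoter, so the sequences concerned are given first. On their own strand, 5 members spanned 8 hairpins, and the 15 mature arms of these had 15 different seeds (bases 2 to 8, which pair with targets). The microRNAs below are those of the loci described later, from RefSeq (GRCm38.p6), written 5′ to 3′ with the seed in capitals. The hairpins of miR-30a, miR-99a and let-7c lay between members of a cluster and were not spanned by one.
miR-135a-5p: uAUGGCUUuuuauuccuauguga
miR-135a-2-3p: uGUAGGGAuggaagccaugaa
miR-30a-5p: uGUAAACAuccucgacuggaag
miR-431-5p: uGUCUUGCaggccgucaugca
miR-433-3p: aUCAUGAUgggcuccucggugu
miR-127-3p: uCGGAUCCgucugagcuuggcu
miR-434-3p: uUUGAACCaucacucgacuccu
miR-136-5p: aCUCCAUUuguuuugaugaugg
miR-99a-5p: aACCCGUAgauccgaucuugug
let-7c-5p: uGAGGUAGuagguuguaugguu

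Annotated promoter windows of 300 bases (250 before and 50 after a gene's start, RefSeq, GRCm38.p6) held the start of 23 members on the strand opposite to the gene, in 20 windows. A member's start is that of its listed locus, which several members can share. All 23 had an H3K4me3 peak within 500 bp of their start in cap mesenchyme, 22 in ureteric epithelium and 23 for ES cells. Expressed protein-coding genes had such a peak at 91.8%, 90.7% and 93.4% of their starts, so a peak is common at any such promoter. The windows shown are, among those of opposite strand, the ones with the largest difference towards MM (Hoxa2, a homeobox gene of the hindbrain and neural crest, chr6:52164782-52165081), the largest towards UB (Spint1, an epithelial protease inhibitor, chr2:119237110-119237409) and the most abundant member (Lsm8, part of the complex that binds U6 RNA, chr6:18848385-18848684). The window of Mir99ahg, a long noncoding RNA that hosts microRNAs (chr16:77329078-77329377), held the start of the listed locus of 15 members on the gene's own strand. The listed loci of all 15 covered the same 281 bases, so where each transcript starts is not known. Each window is written in the direction of the gene, with the bases covered by the member's listed locus in capitals.
Hoxa2: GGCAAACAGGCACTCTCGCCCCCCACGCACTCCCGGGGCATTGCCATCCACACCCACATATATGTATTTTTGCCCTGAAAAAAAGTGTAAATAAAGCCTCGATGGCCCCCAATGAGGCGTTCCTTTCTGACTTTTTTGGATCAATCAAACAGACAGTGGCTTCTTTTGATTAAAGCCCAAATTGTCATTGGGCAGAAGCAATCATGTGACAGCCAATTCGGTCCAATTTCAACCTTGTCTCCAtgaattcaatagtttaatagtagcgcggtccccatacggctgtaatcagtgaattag
Spint1: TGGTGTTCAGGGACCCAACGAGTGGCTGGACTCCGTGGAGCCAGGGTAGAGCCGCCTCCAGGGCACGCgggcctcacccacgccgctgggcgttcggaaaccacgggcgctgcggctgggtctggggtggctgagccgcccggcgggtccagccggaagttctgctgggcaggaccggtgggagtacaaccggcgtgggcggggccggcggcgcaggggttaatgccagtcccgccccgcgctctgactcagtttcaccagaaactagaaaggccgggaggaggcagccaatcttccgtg
Lsm8: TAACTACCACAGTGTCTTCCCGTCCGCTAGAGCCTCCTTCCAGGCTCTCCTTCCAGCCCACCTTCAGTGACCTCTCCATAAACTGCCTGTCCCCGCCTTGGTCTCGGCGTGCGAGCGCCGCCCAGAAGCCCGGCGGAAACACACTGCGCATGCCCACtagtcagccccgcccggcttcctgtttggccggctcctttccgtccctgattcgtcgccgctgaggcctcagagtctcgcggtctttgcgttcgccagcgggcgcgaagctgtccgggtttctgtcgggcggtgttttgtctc
Mir99ahg: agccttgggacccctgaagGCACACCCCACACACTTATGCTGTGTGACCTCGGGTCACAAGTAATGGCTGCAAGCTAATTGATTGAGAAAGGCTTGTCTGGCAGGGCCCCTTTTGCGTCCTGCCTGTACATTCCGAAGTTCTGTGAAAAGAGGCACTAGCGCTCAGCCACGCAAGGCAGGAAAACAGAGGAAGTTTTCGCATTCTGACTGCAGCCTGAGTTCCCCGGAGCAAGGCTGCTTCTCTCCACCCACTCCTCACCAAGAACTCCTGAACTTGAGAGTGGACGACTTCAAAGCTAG

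The member starting in the Hoxa2 window was at 3.17 FPKM in MM and 0.592 FPKM in UB, and Hoxa2 itself was at 6.82 FPKM in MM and 2.40 FPKM in UB. FPKM are fragments scaled to transcript length and library size, so levels can be compared between transcripts. The member in the Spint1 window was at 0.0469 FPKM in MM and 2.75 FPKM in UB, beside Spint1 at 0.0614 and 22.1 FPKM in MM and UB. The member in the Lsm8 window was at 11.49 FPKM in MM and 21.5 FPKM in UB, while Lsm8 was at 23.9 FPKM in MM and 19.7 FPKM in UB, the opposite order. The member and its gene thus lay on the same side in the Hoxa2 and Spint1 windows only, of these 3. The 20 windows held a median of 23.5 CG pairs, against 7 over all 32851 windows. The letters CCAAT, on either strand, were in 9 of the 20 windows (45.0%) and in 37.4% of all windows. TATAAA, on either strand, was in 1 of the 20 (5.0%) and in 13.6% of all windows. Neither motif contains the other, and a match is a description of the letters only. The 32851 windows were not limited to expressed genes. Whether CG pairs or these letters are particular to windows with a member on the opposite strand was not tested.

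Most members were single stretches of low abundance. Their median length was 724 bp (quartiles 587 and 981), the longest was 6698 bp, and 1075 had a length equal to their locus, so no intron was assembled in them. The median level was 3.19 FPKM in MM and 2.46 FPKM in UB, and 1154 members reached 1 FPKM in at least one library. The table listed 27 members at 0 in MM, 54 at 0 in UB and 0 at 0 in both. The depth behind these levels is unknown. The half-width of the interval in the authors' deposited table had a median, over members at 1 FPKM or more, of 42.4% of the level in MM and 46.4% in UB. These intervals describe 1 library each and are no replicate error. Members just inside the length limit, TCONS_00029863 (500 bp), TCONS_00009546 and TCONS_00030097 (501 bp each), were at 184, 0.753 and 2.23 FPKM in MM and at 326, 4.30 and 2.59 FPKM in UB. Those just outside, all of 499 bp, were TCONS_00004020, TCONS_00024037 and TCONS_00027625, at 1.73, 1.81 and 4.45 FPKM in MM and 4.19, 1.002 and 0.343 FPKM in UB.

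Although the study's annotation held none of them, RefSeq placed 510 of the 1169 loci over a gene of some type, and 913 lay within 5 kb of one. A pseudogene lay under 286 members, with 255 different pseudogenes or combinations of pseudogenes among them. A further 286 followed a gene's end on the same strand within 20 kb, 167 lay inside a gene on its strand and 42 on the opposite strand, and 77 pointed away from a gene's start within 5 kb upstream. The other 305 placed loci met none of these criteria and are called other intergenic, although 7 of them overlapped a gene of another type such as ribosomal RNA, and 6 could not be placed. Members also lay in groups: with members less than 50 kb apart joined, there were 679 clusters, of which 509 held 1 member and 34 held 5 or more. These 34 held 311 members, and in 31 of them every member was on one strand. Members of a cluster may be pieces of 1 RNA, which was not tested, so counts of members are given beside counts of clusters.

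The tissue labels held for most marker genes. Of 20 genes of nephron progenitors and metanephric mesenchyme, 13 were at least 4-fold higher in MM and 0 in UB, and of the 19 measured ureteric bud genes 0 were so in MM and 19 in UB. Cited1, the progenitor gene used for the sort, went the other way in the dissected tissue, at 2.78 FPKM in MM and 8.34 FPKM in UB. Markers of other cell types were also measured in MM: all 9 renal stroma genes were at least 4-fold higher there, endothelial markers summed to 28.4 FPKM in MM and 3.09 FPKM in UB, and blood markers to 77.6 FPKM in MM and 11.1 FPKM in UB. Of 5 endothelial genes 3 were higher in MM by 4-fold, and of 7 blood genes 1, the embryonic globin Hbb-y (74.5 FPKM in MM, 10.9 FPKM in UB), which made up most of the blood sum. Neural crest and neuron markers summed to 5.65 FPKM in MM and 5.16 FPKM in UB. Stem cell markers summed to 0.0567 FPKM in MM and 0.0120 FPKM in UB. The part of stroma, endothelium and blood in the differences below was not tested. In bulk tissue, fewer cells of a type and less RNA per cell cannot be told apart.

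More members stood far higher in MM than in UB, while annotated transcripts leaned the other way. A member was counted as higher when log2(FPKM + 1) differed by at least 2 (4-fold on that scale, which understates the change of low transcripts) and the higher library held 1 FPKM or more. By this rule 72 of 1154 members (6.24%) were higher in MM, against 2.15% of 23769 other transcripts of 500 bp or more. In the other direction 40 members (3.47%) were higher in UB, against 4.66% of the other transcripts. Of 4120 transcripts without a match that were under 500 bp, 425 were higher in MM and 495 in UB. Calls were thus more frequent there than among members on both sides, and more of them lay in UB. The excess of MM calls over annotated transcripts was therefore not particular to members. The median difference, MM minus UB, was 0.19 over members (95% order-statistic interval 0.10 to 0.27) and -0.40 over the other transcripts. At 1 FPKM or more in both libraries, the median over 804 members was -0.0045 (interval -0.079 to 0.070), a lean to neither side. Under the same condition it was -0.35 over the other transcripts of 500 bp or more. With that shift of -0.35 removed, 126 members (10.9%) were higher in MM and 24 (2.08%) in UB, beside 3.48% and 2.89% of the other transcripts. With 1 member per cluster the counts were 30 in MM and 26 in UB of 674, and the median difference was -0.23, the opposite sign. Among 273 members of 1000 bp or more, 13 were higher in MM and 14 in UB, so these counts did not lean to MM. The share of other transcripts at that length was not computed. Of the 72 members higher in MM, 31 were listed at 0 in UB, and of the 40 higher in UB, 17 were listed at 0 in MM. In all of these called members the intervals in the authors' deposited table did not overlap between the libraries. The same held for most other transcripts that passed the size rule, 465 of 512 higher in MM and 1013 of 1107 in UB. Size rule and separate intervals together were met by 6.24% of members and 1.96% of other transcripts in the direction of MM. In the direction of UB both were met by 3.47% of members and 4.26% of other transcripts.

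**Figure D1:**
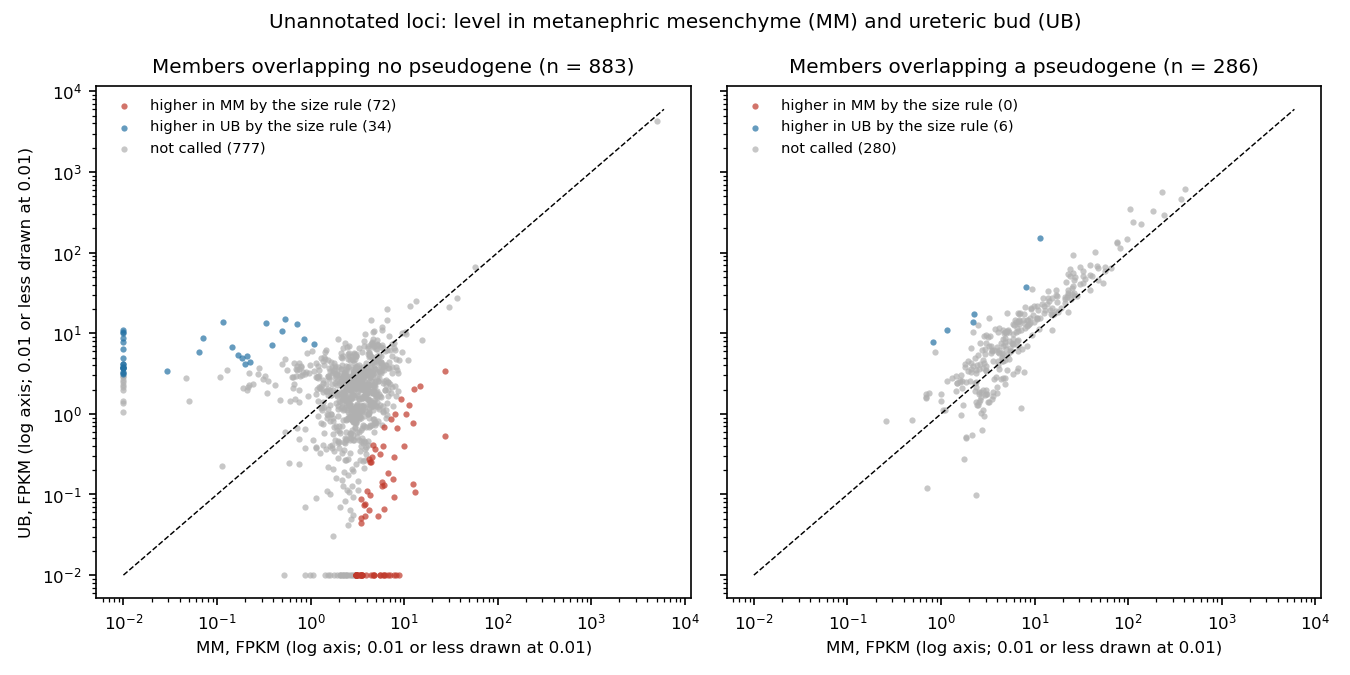
Level of each member in MM (horizontal, FPKM) and UB (vertical, FPKM), both on log axes, for members without (left) and with (right) a pseudogene under them; the dashed line marks equal levels. Members higher in MM by the size rule number 72 without a pseudogene and 0 with one, and the pseudogene members gather above the line, on the side of UB. The median of the other transcripts of 500 bp or more, not drawn, also lay on that side.

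The 286 pseudogene members had medians of 5.14 FPKM in MM and 8.49 FPKM in UB and a median difference of -0.47, and 224 of them were lower in MM than in UB at any size. Other transcripts of 500 bp or more leaned the same way, with a median difference of -0.40 and 32.0% above 0. Of the 283 pseudogene members at 1 FPKM or more in a library, 0 were higher in MM by the size rule and 6 in UB. Among the other transcripts 2.15% and 4.66% were so. Of the 15 members that reached 100 FPKM, 14 overlapped a pseudogene. These included TCONS_00124337 over Gm10073 (409 FPKM in MM, 609 FPKM in UB), TCONS_00002310 over Gm15427 (370 and 461 FPKM in MM and UB), TCONS_00050837 over Gm9843 (233 and 566 FPKM) and TCONS_00002976 over Gm4204 (242 and 290 FPKM). Reads of a pseudogene and of its near-identical parent gene may have been shared in the authors' counting, so these levels are uncertain. TCONS_00126709, over Gm6166 (chr9:57483911-57484499), was at 11.4 FPKM in MM and 151 FPKM in UB, a difference of -3.62. The 871 members with no pseudogene and 1 FPKM or more in a library had a median difference of 0.45. The most abundant member of all, TCONS_00133016, lay on the mitochondrial chromosome at bases 7 to 969 on the plus strand, over the gene of the small ribosomal RNA, at 5039 FPKM in MM and 4234 FPKM in UB.

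By place, the count of members higher in MM was 23 of 167 inside a gene on its strand (4 in UB), 24 of 305 in other intergenic sequence (10 in UB) and 15 of 286 past a gene's end (17 in UB). Of the 23, 12 lay within Gm33655 and 5 shared 1 locus at Gm4718, so the count rests largely on a pair of places. The median differences of these 3 places were 0.78, 0.68 and 0.30. Members opposite to a gene's strand inside it numbered 6 higher in MM and 2 in UB of 42. Those pointing away from a gene's start numbered 4 in MM and 1 in UB of 77, with a median difference of -0.01.

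The 72 members higher in MM lay in 34 clusters and the 40 higher in UB in 26. Of the 72, 67 lay in clusters of 2 or more members, and of the 40, 24 did so, against 660 of all 1169 members (56.5%). Of the 72, 51 lay in 13 clusters that held at least 2 members higher in MM, and of the 40, 19 lay in 5 clusters with at least 2 higher in UB. No cluster held calls in both directions. Among the 34 clusters of 5 or more members, 17 had every member higher in MM at any size (180 members) and 4 had every member higher in UB (31 members), with 13 mixed.

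**Figure D2:**
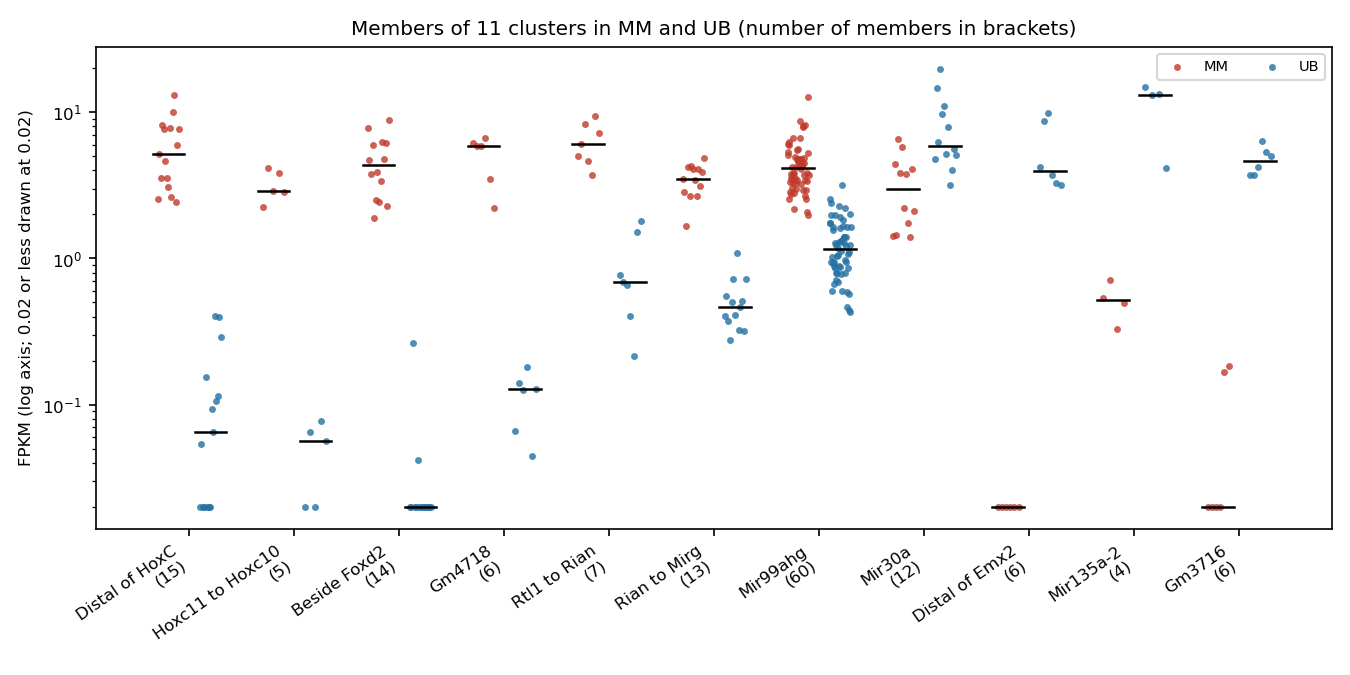
Level (FPKM, log axis) of each member of 11 clusters in MM (left, red) and UB (right, blue), with the median as a bar and the number of members in brackets. In the first 7 clusters the MM medians lie above the UB medians, and in the last 4 they lie below, while the 6 members distal of Emx2 are all listed at 0 in MM.

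The cluster with most calls lay distal of HoxC, the group of homeobox genes that pattern the posterior body. It spanned chr15:103068828-103119019 (50.2 kb), began 31972 bp past the end of Hoxc4 and held 15 members, all on the plus strand, which is also the strand of the HoxC genes. Levels ran between 2.45 and 13.01 FPKM in MM (median 5.22), against 0 and 0.405 FPKM in UB (median 0.0651), and 6 members were listed at 0 in UB. All 15 were higher in MM and 12 passed the size rule. The highest was TCONS_00043838 (521 bp, chr15:103114135-103114655), at 13.01 FPKM in MM and 0.106 FPKM in UB, a difference of 3.66. In the authors' deposited table its intervals were 8.92 to 17.1 FPKM in MM and 0 to 0.421 FPKM in UB. TCONS_00043818 (782 bp) was at 8.13 FPKM in MM and listed at 0 in UB, and TCONS_00043834 (633 bp) at 7.78 FPKM in MM and 0.0937 FPKM in UB. Of the 9 HoxC genes, 7 were higher in MM by the size rule, and Hoxc12 and Hoxc13 were listed at 0 in both libraries. Hoxc4 was at 12.1 FPKM in MM and 1.26 FPKM in UB, Hoxc6 at 21.2 and 0.218 FPKM, Hoxc10 at 61.1 and 0.261 FPKM. The annotated long noncoding RNA Gm28876 lies within the span but on the minus strand, at 1.27 FPKM in MM and 0.300 FPKM in UB. H3K4me3 peaks covered 16.7% of the span in cap mesenchyme, 4.59% in ureteric epithelium and 9.18% for ES cells. H3K27me3 peaks covered 0 bases in cap mesenchyme, 9.78% in ureteric epithelium and 14.8% for ES cells.

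A second HoxC cluster sat between Hoxc11 and Hoxc10 (chr15:102958878-102963514). Its 5 members, 2 on the plus and 3 on the minus strand, were at 2.24 to 4.17 FPKM in MM and 0 to 0.0769 FPKM in UB, and 2 passed the size rule. Members on both strands shared the same coordinates in 2 places. H3K4me3 covered all of its 4637 bases in cap mesenchyme, 56.2% in ureteric epithelium and 28.5% for ES cells. H3K27me3 covered 0 bases in cap mesenchyme, 86.1% in ureteric epithelium and 99.6% for ES cells.

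Beside Foxd2, a forkhead transcription factor of kidney mesenchyme, 14 members on the minus strand lay within the predicted long noncoding RNA Gm33655, between chr4:114871055 and 114903210, ending 3070 bp from Foxd2. They were at 1.90 to 8.85 FPKM in MM (median 4.32), and 12 were listed at 0 in UB, where the highest was 0.266 FPKM. Of these, 9 passed the size rule. TCONS_00090049, nearest to Foxd2, was the highest at 8.85 FPKM in MM and listed at 0 in UB, and TCONS_00090024, at the far end, was at 7.82 FPKM in MM and listed at 0 in UB. Farther into Gm33655 there were 5 more, 3 on the minus strand and 2 on the plus strand, all 5 higher in MM by the size rule and listed at 0 in UB. One of them, TCONS_00085714, was at 7.14 FPKM in MM. Foxd2 was at 5.84 FPKM in MM and 0.0140 FPKM in UB. Its divergent noncoding partner Foxd2os was at 43.1 FPKM in MM and listed at 0 in UB. H3K27me3 covered 0 bases of the 14-member cluster in cap mesenchyme, 14.0% in ureteric epithelium and 15.0% for ES cells, and H3K4me3 covered 10.6%, 7.47% and 10.8%.

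**Figure D3:**
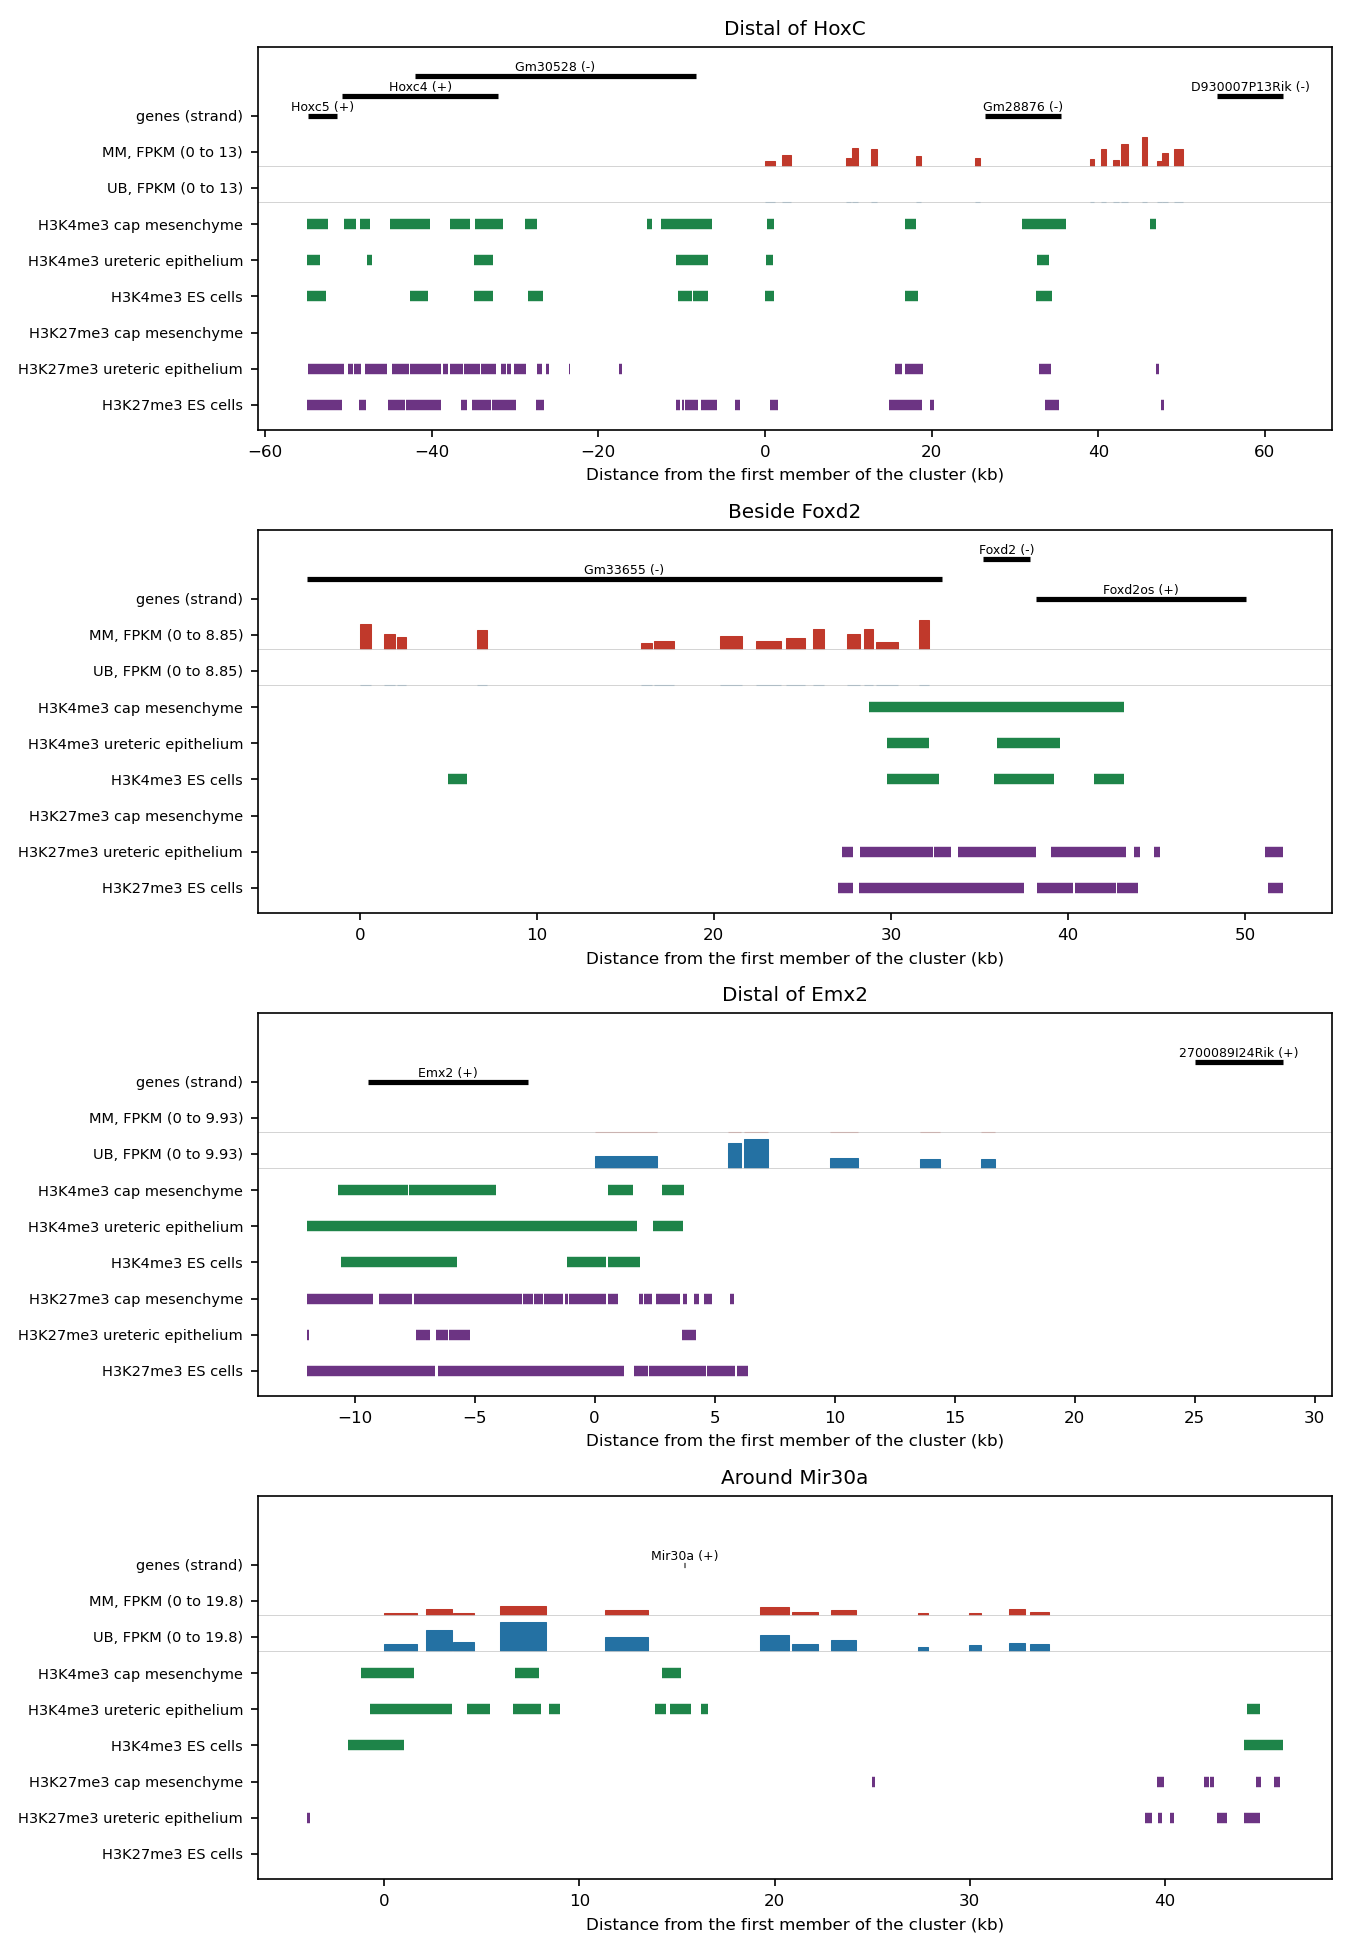
Members, genes and peaks around 4 clusters, by distance in kb from the first member. Bar height is the level in FPKM in MM (red) and UB (blue) on the same scale within a map, green bars are H3K4me3 peaks and purple bars H3K27me3 peaks of the 3 populations. Distal of HoxC and beside Foxd2 the members are high in MM where cap mesenchyme has 0 bases of H3K27me3, while distal of Emx2 they are high in UB and H3K27me3 covers 19.3% of the cluster in cap mesenchyme.

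Other members higher in MM lay beside genes of various functions. TCONS_00124594 (772 bp, chr8:115707099-115707870, minus strand) ended 205 bp before the start of Maf, a transcription factor, on the same strand, and had the largest difference towards MM of all members called. It was at 27.3 FPKM in MM and 0.533 FPKM in UB, a difference of 4.21, with intervals in the authors' deposited table of 21.7 to 32.9 FPKM in MM and 0 to 1.11 FPKM in UB. Maf itself was at 9.16 FPKM in MM and 0.101 FPKM in UB. Past the end of Foxd1, a transcription factor of renal stroma, TCONS_00032458 and TCONS_00032459 were at 3.07 and 4.48 FPKM in MM and listed at 0 in UB, with Foxd1 at 22.9 FPKM in MM and 0.0301 FPKM in UB. H3K27me3 covered 0 bases of that pair's span in cap mesenchyme and 22.2% in ureteric epithelium. TCONS_00111451, past the end of Xylt1, which starts the sugar chains of proteoglycans, was at 12.3 FPKM in MM and 0.781 FPKM in UB (2.90). TCONS_00062582, 12057 bp past the ubiquitin ligase gene Marchf5, was at 12.5 FPKM in MM and 0.133 FPKM in UB (3.57), while Marchf5 was at 14.7 FPKM in MM and 29.2 FPKM in UB. Member and nearest protein-coding gene thus lay on different sides there.

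At chr17:85796168-85819656, 6 members shared one locus that overlaps the long noncoding RNAs Gm29418 and Gm4718. They were at 2.20 to 6.68 FPKM in MM and 0.0448 to 0.182 FPKM in UB, and 5 passed the size rule. Gm29418, on the other strand, was at 7.78 FPKM in MM and 0.398 FPKM in UB. H3K27me3 covered 0 bases of the span in cap mesenchyme, 13.1% in ureteric epithelium and 16.01% for ES cells, and H3K4me3 covered 30.6%, 9.94% and 14.6%.

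The imprinted region of chromosome 12, where Meg3, Rian and Mirg are noncoding RNAs expressed from the maternal copy, held 2 clusters on the plus strand. Between Meg3 and Rian, over and beside Rtl1, 7 members were at 3.71 to 9.37 FPKM in MM and 0.215 to 1.81 FPKM in UB, and 4 passed the size rule. Between Rian and Mirg, 13 members were at 1.68 to 4.87 FPKM in MM and 0.279 to 1.10 FPKM in UB, all 13 higher in MM, and 1 passed. Meg3 was at 86.8 FPKM in MM and 13.6 FPKM in UB, and Rian at 43.1 FPKM in MM and 10.3 FPKM in UB. TCONS_00027626 (chr12:109590169-109600155) spanned 6 hairpins, those of miR-431, miR-433, miR-127, miR-434, miR-432 and miR-136, and was at 7.20 FPKM in MM and 1.81 FPKM in UB (1.55). Its assembled length was 656 bp, less than its locus, so a hairpin may lie in sequence that was spliced out. The spans held 12 hairpins of the same strand in the first cluster and 23 in the second. Neither mark had a peak in either span in any population.

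Mir99ahg was the largest cluster. Its 60 members, all on the plus strand over chr16:77329097-77690938 (362 kb), were at 1.97 to 12.7 FPKM in MM (median 4.13) and 0.433 to 3.17 FPKM in UB (median 1.15), and all 60 were higher in MM, although 2 passed the size rule. Mir99ahg in the study's annotation was at 28.2 FPKM in MM and 7.43 FPKM in UB, a difference of 1.79. The hairpins of miR-99a and let-7c lay in a gap between listed loci. The gap began 1928 bp before miR-99a, at the end of the locus listed for TCONS_00048552 (6.69 FPKM in MM, 1.97 FPKM in UB). It ended at TCONS_00048558 (3.26 FPKM in MM, 0.857 FPKM in UB).

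On the side of UB the largest called groups were distal of Emx2 and near Gm3716, with 6 members each. Emx2 is a homeobox gene needed for growth of the ureteric bud, at 1.43 FPKM in MM and 225 FPKM in UB. The 6 members followed its end on its strand (chr19:59468120-59484806, beginning 2763 bp past the gene), were all listed at 0 in MM, and were at 3.19 to 9.93 FPKM in UB. The highest was TCONS_00063284 (1021 bp) at 9.93 FPKM in UB, followed by TCONS_00063283 (544 bp) at 8.70 FPKM in UB. The member next to the gene, TCONS_00063282 (2613 bp), was at 4.21 FPKM in UB, and the 3 beyond the highest pair were at 3.72, 3.30 and 3.19 FPKM in UB. H3K27me3 covered 19.3% of the span in cap mesenchyme, 3.35% in ureteric epithelium and 34.8% for ES cells, and H3K4me3 covered 11.6%, 18.2% and 10.9%. The 6 members at chr5:64576686-64591152, which follow the long noncoding RNA Gm3716, were at 0 to 0.185 FPKM in MM, 4 of them listed at 0, and at 3.70 to 6.31 FPKM in UB. Gm3716 was at 0.230 FPKM in MM and 2.14 FPKM in UB.

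MicroRNA loci were also among those higher in UB. At chr10:92070456-92075675, 3 members past the end of the noncoding RNA Rmst spanned the hairpin of miR-135a on its strand. They were at 0.534, 0.718 and 0.330 FPKM in MM and at 14.9, 13.1 and 13.3 FPKM in UB, in the same order, with differences of -3.37, -3.04 and -3.42. Rmst was at 0.749 FPKM in MM and 25.9 FPKM in UB. The 3 share their locus, so they are not separate regions, and all are shorter than it. No H3K4me3 peak lay over this cluster in any population.

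Around Mir30a, 12 members on the plus strand covered chr1:23256905-23290963, and RefSeq had no protein-coding gene within 50 kb. They were at 1.39 to 6.55 FPKM in MM (median 2.99) and 3.17 to 19.8 FPKM in UB (median 5.91). All 12 were higher in UB and 0 passed the size rule, with differences between -1.56 and -0.37. The hairpin of miR-30a, a microRNA abundant in kidney, lay on the same strand 1849 bp after TCONS_00000275 (3.85 FPKM in MM, 9.73 FPKM in UB) and 3808 bp before TCONS_00000278 (5.78 FPKM in MM, 10.95 FPKM in UB). H3K4me3 peaks covered 10.96% of the span in cap mesenchyme, 25.4% in ureteric epithelium and 2.98% for ES cells, and those of ES cells touched 1 member, the first. TCONS_00000271, TCONS_00000266 and TCONS_00000264 of this cluster were among the 5 most abundant members with H3K4me3 in both kidney populations and no gene within 5 kb, at 6.55, 4.39 and 1.43 FPKM in MM and 19.8, 14.7 and 4.78 FPKM in UB. The other 2, TCONS_00127529 and TCONS_00044825, were at 2.83 and 2.59 FPKM in MM and 4.61 and 2.01 FPKM in UB.

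Other members higher in UB included the largest difference of all in that direction, TCONS_00119171 (2889 bp, chr8:39954701-39960607, plus strand). It was 1 of 2 neighbouring members, both higher in UB by the size rule. It was at 0.117 FPKM in MM and 13.9 FPKM in UB, a difference of -3.74, and no protein-coding gene lay within 50 kb. No peak of either mark lay within 1 kb of it in any population. Inside Arhgef38, TCONS_00083006 and TCONS_00083015 were listed at 0 in MM and at 10.96 and 10.3 FPKM in UB. Arhgef38 was listed at 0 in MM and at 2.76 FPKM in UB. TCONS_00067282, 10797 bp before the start of Rprm (a cell cycle gene) on the opposite strand, was at 0.0708 FPKM in MM and 8.68 FPKM in UB, with Rprm at 0.576 FPKM in MM and 153 FPKM in UB. TCONS_00074446, 1669 bp before Spint1 and divergent from it, was listed at 0 in MM and at 7.76 FPKM in UB. Between the kidney populations, its H3K4me3 peak was found in ureteric epithelium alone and its H3K27me3 peak in cap mesenchyme alone.

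Called members that had an expressed protein-coding gene nearby mostly lay on the same side as that gene. A protein-coding gene within 50 kb and at 1 FPKM or more in either library was found for 42 of the 72 members higher in MM, and it was higher by the same size rule in MM for 26 and in UB for 1. For the 40 members higher in UB, 15 had such a gene, which was higher by that rule in MM for 0 and in UB for 12. Among members that were not called, 611 had such a gene, higher by that rule in MM for 23 and in UB for 19. Members of 1 cluster share their gene, so these counts are not of separate genes. At any size, the gene lay on the other side for 4 members higher in MM and 0 higher in UB. The member with the gene called in the other direction, TCONS_00054668 (5.51 FPKM in MM, 0.315 FPKM in UB), lay 27818 bp from Ezr, a membrane linker of epithelia at 5.96 FPKM in MM and 82.9 FPKM in UB.

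**Figure D4:**
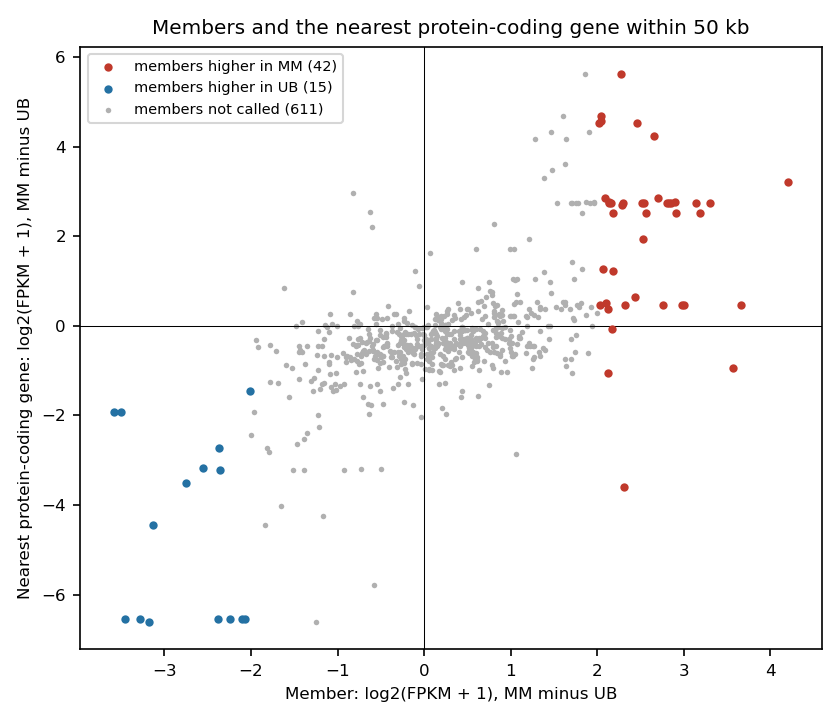
Difference of each member (horizontal, log2(FPKM + 1), MM minus UB) and of its nearest protein-coding gene within 50 kb (vertical, same scale), for genes at 1 FPKM or more in either library. Of the 42 members higher in MM, 4 lie below the horizontal line, all 15 higher in UB are in the lower left, and the 611 members not called spread about the centre.

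Of 70 marker genes, 11 had a member within 50 kb, 27 members in all, of which 5 were higher in MM by the size rule and 6, all distal of Emx2, in UB. Over all 1154 members tested, 6.24% were higher in MM and 3.47% in UB, and over the other transcripts 2.15% and 4.66%. Most of the listed nephron progenitor, ureteric bud and stroma genes themselves differed by that rule, so the list is not a neutral sample of genes. TCONS_00064902 lay 1110 bp before Pax2, a regulator of both lineages, in divergent direction, at 1.97 FPKM in MM and 8.58 FPKM in UB (-1.69), with Pax2 at 9.53 FPKM in MM and 24.6 FPKM in UB. TCONS_00023419, opposite to the ureteric gene Hoxb7 inside it, was at 1.05 FPKM in MM and 6.08 FPKM in UB (-1.79), with Hoxb7 at 9.95 FPKM in MM and 75.8 FPKM in UB. TCONS_00008993, 6447 bp before the mesenchymal transcription factor Tcf21, was at 3.48 FPKM in MM and 0.0890 FPKM in UB (2.04), with Tcf21 at 46.5 FPKM in MM and 0.977 FPKM in UB. TCONS_00006961, near Timm17a, was at 5.30 FPKM in MM and 4.56 FPKM in UB, and TCONS_00137572, inside Apex2, at 4.602 FPKM in MM and 1.83 FPKM in UB.

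H3K4me3 was far less frequent at members than at annotated transcripts. With at least 1 bp of a peak within 1 kb of the locus, H3K4me3 was at 25.1% of the 1169 members for cap mesenchyme (95% exact interval 22.7 to 27.7), 20.3% for ureteric epithelium (18.003 to 22.7) and 35.5% for ES cells (32.8 to 38.3). Intervals cover counting error over loci only. The 4121 transcripts without a match that were under 500 bp had H3K4me3 less often still, in 15.7%, 13.2% and 23.9% of cases in the same order. The other expressed transcripts of 500 bp or more, which span far longer loci, had H3K4me3 in 98.9%, 98.5% and 99.0% of cases in the same order. A comparison at the 5′ end alone removes that difference in span. However, a member's 5′ end is the edge of its listed locus, which may not be where transcription starts, while genes have an annotated start. Within 500 bp of the 5′ end, H3K4me3 was at 20.5%, 15.997% and 27.9% of members. It was at 72.5%, 69.1% and 71.9% of expressed long noncoding genes and 91.8%, 90.7% and 93.4% of expressed protein-coding genes. At the 3′ end of members the shares were 12.5%, 9.84% and 21.6%. In all, 719 members had no H3K4me3 in any population and 222 had it in all 3.

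The shares differed widely by place. Members divergent from a gene start had H3K4me3 in 79.2% of cases in cap mesenchyme (68.5 to 87.6), 77.9% in ureteric epithelium (67.0 to 86.6) and 85.7% for ES cells (75.9 to 92.6). Members past a gene's end had it in 7.34% (4.602 to 11.01), 2.80% (1.22 to 5.44) and 17.8% (13.6 to 22.8). Pseudogene members had it in 32.2%, 22.7% and 48.3%, and those inside a gene on its strand in 30.5%, 26.3% and 41.3%. Members that share a locus or its start count separately in these shares. The 15 whose listed locus begins in the Mir99ahg window all had H3K4me3 in each population. So did the 6 that share 1 locus at Gm4718. With no annotated gene within 5 kb, 254 members had it in 9.84%, 6.30% and 16.9%. The ES list was the longest, and with lists of equal length the shares over all members were 21.8%, 20.3% and 21.8%.

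H3K27me3 lay at 7.10% of members in cap mesenchyme (5.69 to 8.73), 12.4% in ureteric epithelium (10.6 to 14.4) and 6.16% for ES cells (4.85 to 7.69). The other expressed transcripts of 500 bp or more, which span far longer loci, had it in 29.4%, 38.4% and 15.8% of cases. Within 500 bp of the 5′ end, with the same limit on members' ends, it was at 2.57%, 5.13% and 4.02% of members. Expressed protein-coding genes had it there in 2.21%, 3.34% and 6.53% of cases, and expressed long noncoding genes in 6.34%, 6.06% and 12.4%. A lower share at members thus did not hold against protein-coding starts in the kidney populations. The lists of the kidney populations hold many more and narrower peaks than that of ES cells. With lists of equal length the shares of members within 1 kb were 1.11%, 3.17% and 6.16%, so the order between kidney and ES cells depends on list length.

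**Figure D5:**
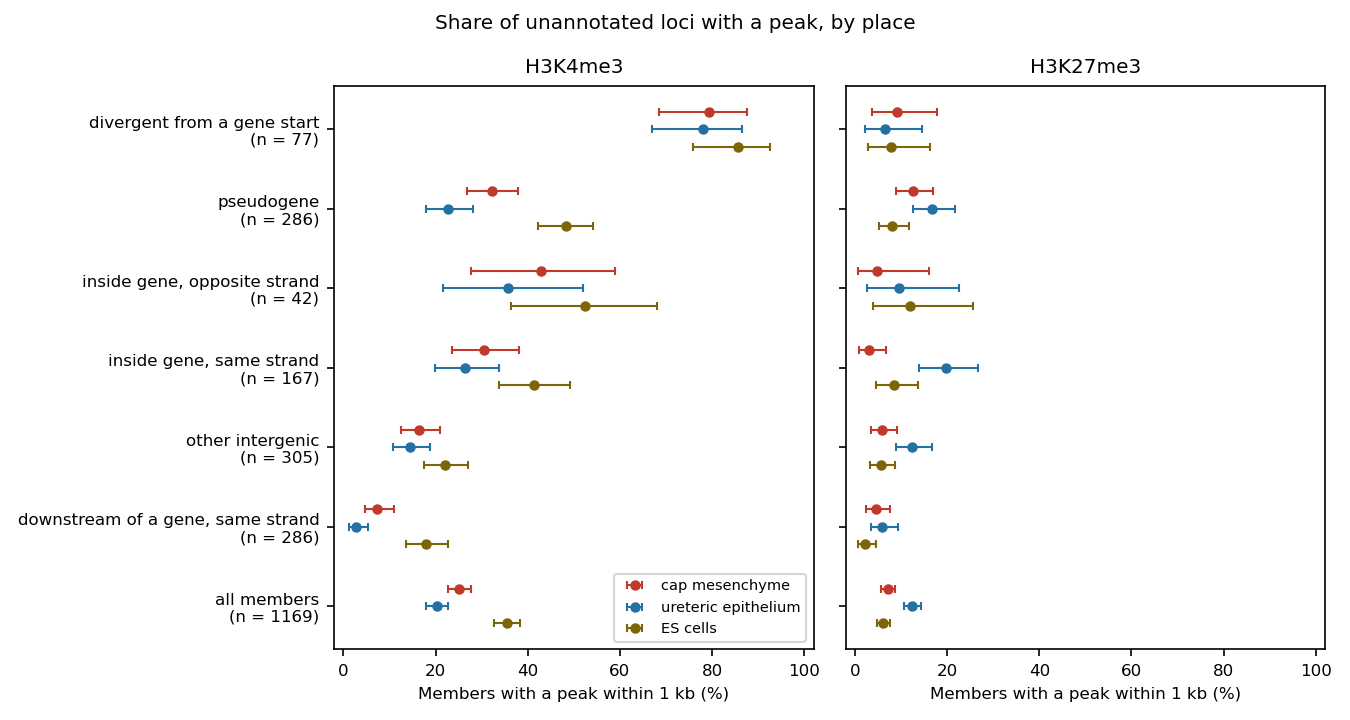
Share of members (%) with a peak of H3K4me3 (left) or H3K27me3 (right) within 1 kb, by place, in cap mesenchyme (red), ureteric epithelium (blue) and ES cells (brown). Points are shares and bars are 95% exact binomial intervals; divergent members stand highest in H3K4me3 and members past a gene's end lowest in all 3 populations.

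Members higher in MM carried H3K27me3 in ureteric epithelium more often than in cap mesenchyme. Of the 72, 18 had it in ureteric epithelium only, 1 in cap mesenchyme only and 1 in both. Of the 40 higher in UB, 1 had it in ureteric epithelium only, 4 in cap mesenchyme only and 1 in both. Of the 1057 not called, 72 had it in ureteric epithelium only, 24 in cap mesenchyme only and 52 in both. As shares, H3K27me3 in ureteric epithelium lay at 26.4% of members higher in MM (16.7 to 38.1), 5.0% of those higher in UB (0.611 to 16.9) and 11.7% of those not called (9.85 to 13.8). The same 72 had it in ES cells in 23.6% of cases (14.4 to 35.1), against 4.92% of those not called (3.70 to 6.40). H3K4me3 was in cap mesenchyme only at 6 of the 72, in ureteric epithelium only at 0 and in both at 14. Members of a cluster weigh together in these counts. The members higher in MM with H3K27me3 in ureteric epithelium lay in 10 clusters, with 5 at the shared locus of Gm4718 and 3 beside Foxd2. Those not called lay in 72 clusters, and 16 of them belonged to Mir99ahg, where the ureteric peaks covered 730 bp. The RNA was of E11.5 tissue and the peaks of older sorted cells, so age and population cannot be told apart from cell type in these comparisons.

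The longest members showed no large difference. TCONS_00025350 (6698 bp, over the pseudogene Gm5182) was at 2.46 FPKM in MM and 5.41 FPKM in UB, TCONS_00055026 (5205 bp, over Gm20008) at 6.67 FPKM in MM and 3.75 FPKM in UB, and TCONS_00033872 (4650 bp, intergenic) at 7.40 FPKM in MM and 7.43 FPKM in UB. TCONS_00033872 carried H3K4me3 in all 3 populations.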

How the data were processed

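RNA levels are the FPKM values of the authors' deposited Cuffdiff table, with a column for each of MM and UB. Peaks are the authors' deposited lists, each peak with a score of the caller, used only to rank peaks within a list. Per the submitters' processing notes, Bowtie2, MACS, TopHat, Cufflinks and Cuffdiff were used on mm10. Versions, settings and the number of libraries behind a column are not given in the sources used here. The 3 input libraries were not analysed here.

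Members, lists and settings were chosen with earlier results of these data known. Strand was inferred from the order of the deposited table and checked on 70980 reference transcripts, of which 70980 had the RefSeq strand. Starts and ends of members are those of the listed locus. This locus was longer than the transcript for 94 members, and 64 shared it with another member. Differences are log2(FPKM + 1), MM minus UB. A call needed a difference of 2 and 1 FPKM in the higher library. A mark was present with 1 bp of a peak within 1 kb. Genes and places came from RefSeq (GRCm38.p6, the same build as mm10). A place over a pseudogene took precedence over the others. Labels give 1 sample per group, so no test was made. Alternatives varied the pseudocount, minimum level, length, scaling, peak window, peak lists and member choice; those without pseudogenes and with 1 member per cluster were chosen after seeing the data. Scripts were tested on simulated data. The loci named in the text were the 8 largest differences in each direction, the 5 most abundant, the 5 most abundant with H3K4me3 in both kidney populations and no gene within 5 kb, the 3 longest, the 3 on each side of the length limit and the 8 most abundant near a marker gene. Loci of the clusters, of the microRNAs and of promoter windows were added after their values were seen. Python 3.11.15, pandas 2.3.3, numpy 2.4.6, SciPy 1.17.1 and matplotlib 3.10.9 were used.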

Additional observations from a re-analysis of the deposited data

How the results depend on the processing

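No paired analysis was possible because each group held 1 sample, and for the same reason no replicate could be left out. A pseudocount of 0.1 gave 196 members higher in MM and 86 in UB. Members of 1000 bp or more gave 13 and 14 of 273 tested, counts that did not lean to MM. Rescaling gave 126 and 24 with a median difference of 0.54. With 1 member per cluster there were 30 and 26 and the median was -0.23, the opposite sign, and without pseudogenes the median was 0.45. Other minimum levels, 1 member per locus and intervals apart left both counts within 1.5 times those reported.

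Shares of members with H3K4me3 are given for cap mesenchyme, ureteric epithelium and ES cells in turn. They were 19.4%, 16.5% and 28.1% without flanks, 39.5%, 31.7% and 53.9% with 5 kb flanks, 18.2%, 13.9% and 25.1% with the peaks above the median score of each list, 32.2%, 26.4% and 40.6% for members of 1000 bp or more, and 9.84%, 6.30% and 16.9% with no gene within 5 kb. Lists of equal length gave 21.8% in cap mesenchyme and 21.8% in ES cells. The ureteric share was 17.8% with 1 member per locus, and the ES share 31.4% without pseudogenes and 38.4% with 1 member per cluster.

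For H3K27me3 the shares in the same order were 3.59%, 7.87% and 4.53% without flanks, 19.8%, 27.3% and 8.90% with 5 kb flanks, 4.19%, 7.87% and 4.36% with the peaks above the median score, and 9.06%, 15.2% and 9.42% for members of 1000 bp or more. With at least 200 bp of peaks they were 4.53% in cap mesenchyme and 10.3% in ureteric epithelium, and with lists of equal length 1.11% and 3.17%. The cap mesenchyme share was 5.32% without pseudogenes, the ureteric share 9.37% with 1 member per locus and 9.13% with 1 per cluster, and the ES share 4.33% with no gene within 5 kb. Apart from wider or narrower windows, shorter lists and fewer members, the cause was not tested. With 1 library a group and no counts, no difference here has a replicate error.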
